A study of Sus scrofa with 21 samples.

Results

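OAS1, OAS2 and OASL, the interferon-inducible oligoadenylate synthetase family, were described probe by probe in whole blood of DD and LW pigs. The members were the 3 genes named in the gene name or description column of the array's scanner files, out of 10070 genes with a name on the array. They were covered by 11 of 60305 probes, with 3 for OAS1, 6 for OAS2 and 2 for OASL. DD pigs are minipigs of an inbred line kept homozygous at the swine leukocyte antigen locus (haplotype Hp-4.4), and LW pigs are commercial Large White animals that served as controls. All were 60 days old and were raised on one farm on the same feed, which was a grower diet given ad libitum at sampling. The blood RNA of 10 DD and 11 LW pigs was hybridised in 1 colour on an Agilent pig array, each pig on its own array of one of 3 chips. The DD pigs came from 5 litters and the LW pigs from 6, and siblings of one sow are not independent. Since DD is a single closed herd, breed and any other property of that herd cannot be told apart.

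Oligoadenylate synthetases are cytosolic sensors of double-stranded RNA. On binding it, OAS1 and OAS2 join ATP into short chains of adenylates with an unusual linkage, called 2-5A. These chains are a second messenger of the antiviral response of the cell. OASL carries the synthetase fold and a tail of ubiquitin-like domains, and in mammals such as humans it has lost the synthetase activity and acts on RIG-I signalling. All 3 genes are transcribed in response to interferon in many cell types, leukocytes of the blood among them.

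In the Sscrofa11.1 RefSeq table, OAS2 lies on chromosome 14 from 38827667 to 38847697 and OAS1 next to it from 38851083 to 38867427, with 3385 bases between them. OASL lies on the same chromosome from 40900050 to 40917189. The scanner files place each 60-base probe by its first base on a transcript and give no genome position, so that exons were not assigned here. The probes that decide the results below are shown 5′ to 3′. The pair for OAS1 carries the widest spread within LW, the 3 for OAS2 are those that agree and disagree on the breed difference, and the OASL probe is the member not well above background on every array.
OAS1 at base 676, probe A_72_P719688: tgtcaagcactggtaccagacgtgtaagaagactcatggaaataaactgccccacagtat
OAS1 at base 871, probe A_72_P223657: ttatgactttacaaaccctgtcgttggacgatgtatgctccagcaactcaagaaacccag
OAS2 at base 340, probe A_72_P703894: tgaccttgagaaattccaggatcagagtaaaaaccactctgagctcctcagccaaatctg
OAS2 at base 1223, probe A_72_P589381: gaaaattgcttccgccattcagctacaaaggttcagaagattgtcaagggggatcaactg
OAS2 at base 2062, probe A_72_P444275: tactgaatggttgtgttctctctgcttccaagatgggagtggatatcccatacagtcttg
OASL, probe O11782: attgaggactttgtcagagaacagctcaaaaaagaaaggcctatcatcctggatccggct

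The log2 values are those deposited after background correction and quantile normalization. A log2 difference of 1 is a factor of 2 in signal, and as signal also depends on the probe, the level of one probe was not read as higher or lower expression than that of another. Between 44.7% and 61.0% of probes were well above background on the DD arrays and between 53.0% and 63.8% on the LW arrays. The DD arrays were also dimmer, with a log2 75th percentile of 6.56 to 8.49 against 7.37 to 8.62, so the breed difference moved with brightness before normalization. Of the 11 member probes, 10 were well above background on all 21 arrays and all 11 passed the filter on dim probes. Breeds were compared with limma with breed and chip as fixed terms, siblings blocked by sow, and p-values were adjusted over 45228 probes. The call threshold was an adjusted p of 0.05. At this threshold 11.0% of all probes were higher in DD pigs and 10.7% lower, 21.7% together. Of the member probes 5 of 11 (45.5%) were called, all of them higher in DD pigs. The correlation between siblings was estimated at -0.11, so the block by sow did not make the test stricter. Without that block the calls fell from 9809 to 6871 over all probes and from 5 to 4 of the member probes. The median log2 difference of the 11 was 1.00, against -0.07 over all probes tested. As the samples are whole blood, more cells of a type and more RNA per cell cannot be told apart.

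OAS1, which makes short 2-5A chains, was higher in DD pigs on each of its 3 probes, by 3.60 to 3.70-fold. The brightest probe, at base 2396 of a longer transcript, is named OAS1 in the description alone. The other 2 carry the symbol in the gene name column. On the brightest probe the DD pigs ran from 11.49 through a median of 12.29 to 13.44. The LW pigs ran from 7.90 through 11.10 to 12.20 on the same probe. All 10 DD pigs lay above the LW median and 6 of them above every LW pig, so the breeds overlapped in the upper LW range only. The log2 difference was 1.85 (SE 0.43, limma adjusted p = 0.00729). Between litter means it was 2.03 (exact two-sided permutation over 462 divisions of the litters, p = 0.00866, where the smallest possible p is 0.00216).

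At base 871 of OAS1 the DD pigs ran from 11.40 through 11.95 to 14.42 and the LW pigs from 5.81 through 10.74 to 12.52. The difference was 1.86 (SE 0.63, limma adjusted p = 0.0407). At base 676 the DD pigs ran from 8.79 through 10.35 to 12.55 and the LW pigs from 5.05 through 8.90 to 10.85. The difference there was 1.89 (SE 0.58, limma adjusted p = 0.0289). On these probes the bulk of the LW pigs lay near the lower DD pigs, and 2 LW pigs lay far below all others. When 1 pig at a time was left out, the call held in 10 of 21 fits at base 871, in 17 at base 676 and in all 21 at base 2396. Exact permutation of the litter means gave p = 0.0433 for base 871 and p = 0.0130 for base 676. The litter test was run on 11 probes and its p-values are not adjusted.

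**Figure D1:**
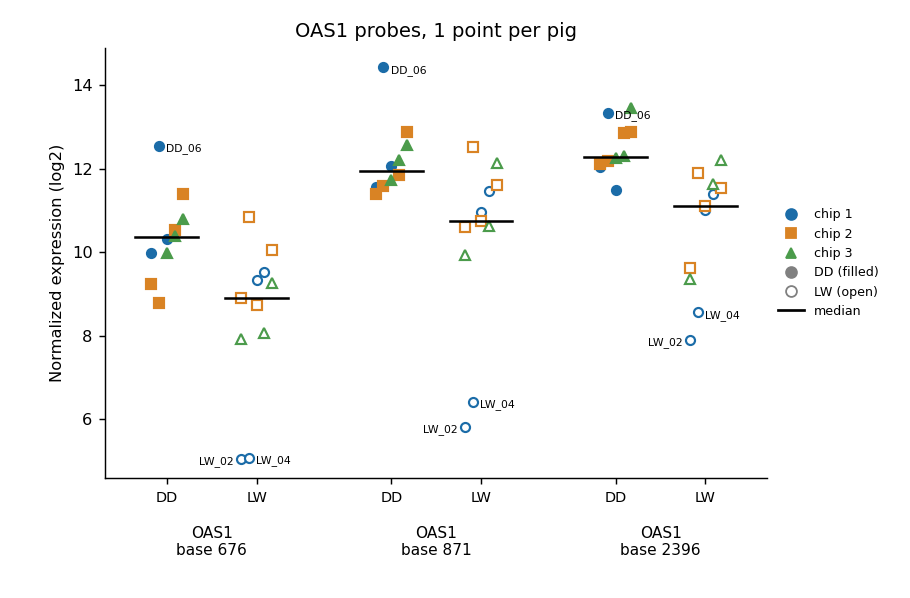
Normalized log2 expression (y axis) of the 3 OAS1 probes in each of 10 DD pigs (filled) and 11 LW pigs (open), with chips by colour and shape and the median as a line. LW_02 and LW_04 sit at 5.81 and 6.42 on the probe at base 871, while the other 9 LW pigs lie between 9.93 and 12.52.

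The 2 low pigs were LW_02 and LW_04, both on chip 1 and from different sows. At base 871 LW_02 was at 5.81 and LW_04 at 6.42, and the higher of them differed by -3.50 from the next LW pig. LW_09, a sibling of LW_04 on chip 2, was at 11.60 on this probe. At base 676 the low pair was at 5.05 and 5.08 and LW_09 at 10.04. At base 2396 the gap was narrower, with 7.90 and 8.56 against 9.36 in the next LW pig. The low values thus stood on all 3 probes of the gene. LW_09 did not share those of LW_04, and LW_02 had no sibling on the arrays. Of 45228 probes, 2 had both pigs as far below the LW median as the OAS1 probe at base 871. The other of the 2 has no gene name, and its identifier carries the mRNA that the files pair with OAS1. It was found after the values were seen. On it LW_02 was at 3.71 and LW_04 at 3.47, neither well above background, while the other 9 LW pigs ran from 11.38 to 14.09 and the DD pigs from 12.48 to 15.39. What set these pigs apart was not tested.

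Without LW_02 and LW_04 the OAS1 difference shrank on each probe. It was 1.42 at base 2396 (SE 0.35, limma adjusted p = 0.0152), 1.03 at base 871 (SE 0.36, limma adjusted p = 0.0544) and 1.17 at base 676 (SE 0.40, limma adjusted p = 0.0461). The litter test without them gave 1.35 at base 2396 (exact permutation over 252 divisions, p = 0.0159), 0.97 at base 871 (exact permutation, p = 0.0952) and 1.07 at base 676 (exact permutation, p = 0.0873). Base 2396 was thus the OAS1 probe called by both tests with and without these pigs.

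OAS2, the larger synthetase with 2 synthetase domains, was called higher in DD pigs at 2 of its 6 probes. The difference was positive on all 6, from 0.23 to 1.15. Toward the 5′ end, at base 340, the DD pigs ran from 6.58 through 7.28 to 8.81 and the LW pigs from 5.31 through 6.22 to 7.17. All 10 DD pigs exceeded the LW median, and 9 of 11 LW pigs lay below every DD pig. The log2 difference was 1.05 (SE 0.24, limma adjusted p = 0.00754), or 2.07-fold. At base 1223 the DD pigs ran from 9.21 through 9.58 to 11.24 and the LW pigs from 6.90 through 8.71 to 9.76. The difference was 1.15 (SE 0.29, limma adjusted p = 0.0130), and again 9 LW pigs lay below every DD pig. Litter means gave p = 0.00866 at base 340 and p = 0.0130 at base 1223 by exact permutation.

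The brightest OAS2 probe, at base 3327, missed the threshold. Its DD pigs ran from 12.96 through 14.28 to 15.98 and its LW pigs from 11.48 through 13.35 to 14.87. The difference was 0.87 (95% interval 0.16 to 1.58, limma adjusted p = 0.0712), and DD_06 alone exceeded all LW pigs. A probe from an expressed sequence described as OAS2 shares 55 of 59 aligned bases with it, so the pair does not count as separate evidence, and it gave 0.90 (SE 0.34, limma adjusted p = 0.0609). The array also holds the same 60 bases as base 3327 under another identifier. Those duplicate spots differed by at most 0.22 on any of 21 arrays, and such a pair for OASL at base 1259 by at most 0.62, which is spot error within an array and not the spread between pigs. At base 2210 the difference was 1.00 (SE 0.38, limma adjusted p = 0.0623). Exact permutation of litter means, unadjusted, gave p = 0.0563 at base 3327, 0.039 on the probe that shares its bases and 0.0368 at base 2210. Without LW_02 and LW_04 the same test gave p = 0.143, 0.103 and 0.19.

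**Figure D2:**
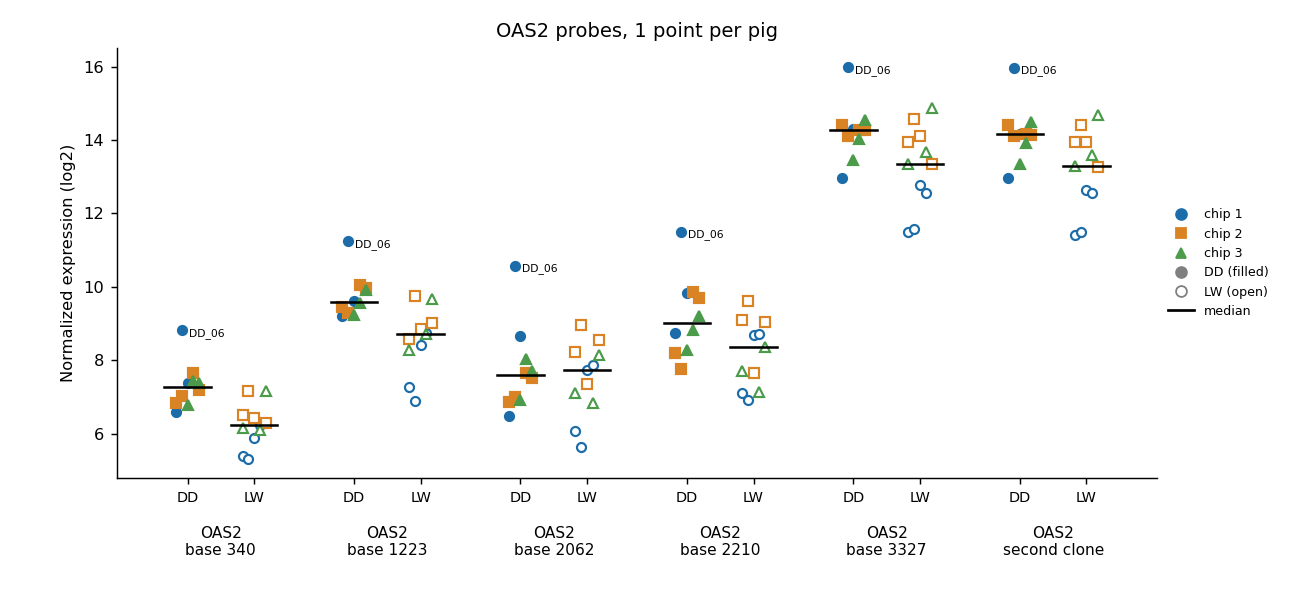
Normalized log2 expression (y axis) of the 6 OAS2 probes in each of 10 DD pigs (filled) and 11 LW pigs (open), with chips by colour and shape and the median as a line. DD_06 is the highest DD pig on every probe, and at base 2062 the LW median of 7.73 lies above the DD median of 7.58, unlike the other probes.

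The probe at base 2062 of OAS2 stood apart from the others of its gene. Its DD pigs ran from 6.49 through 7.58 to 10.57 and its LW pigs from 5.64 through 7.73 to 8.95. Only 3 of 10 DD pigs exceeded the LW median, and the difference was 0.23 (95% interval -0.66 to 1.12, limma adjusted p = 0.726). Its offset from the mean of the other 5 OAS2 probes, of which only the breed difference was read, was -3.19 in DD pigs (SD 0.57, n = 10) and -2.40 in LW pigs (SD 0.46, n = 11). That relative difference was -0.73 between litter means (exact permutation, p = 0.00649, 1 of 11 such comparisons, chosen after the values were seen), and 7 of 10 DD pigs lay below every LW pig on it. At base 1223 the same comparison gave 0.32 (exact permutation, p = 0.0563). Once additive breed and chip effects were removed, base 2062 still moved with the rest of the gene. Pearson r to the other 5 OAS2 probes was 0.85 to 0.92 over 21 arrays. Such a fit leaves in any breed difference that changes with the chip. What set this probe apart was not tested.

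LW_02 and LW_04 were the lowest LW pigs on all 9 probes of OAS1 and OAS2, and on neither OASL probe. On the 6 OAS2 probes the higher of the pair differed by -0.04 to -1.07 from the next LW pig, against -0.80 to -3.50 on the 3 OAS1 probes. At base 3327 they were at 11.48 and 11.57, and the higher differed by -0.98 from the next LW pig. At base 340 they were at 5.38 and 5.31, and the higher differed by -0.49 from the next LW pig. Without them the difference was 0.87 at base 340 (limma adjusted p = 0.0239), 0.86 at base 1223 (limma adjusted p = 0.0284) and 0.58 at base 3327 (limma adjusted p = 0.201).

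OASL, the family member with ubiquitin-like domains, gave no called difference. At base 1259 the DD pigs ran from 5.74 through 6.91 to 9.82 and the LW pigs from 6.55 through 7.15 to 8.27. The DD range enclosed the LW range, with DD_06 highest of all and 5 of 10 DD pigs above the LW median. The log2 difference was -0.08 (95% interval -0.80 to 0.65, limma adjusted p = 0.890). The probe shown above was dim, being well above background in 3 of 10 DD and 8 of 11 LW pigs, with DD pigs at 4.00 to 7.40 and LW pigs at 4.20 to 5.95. Its interval ran from -0.64 to 0.64 (limma adjusted p = 0.994). Intervals of this width do not show that the breeds had equal OASL levels.

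**Figure D3:**
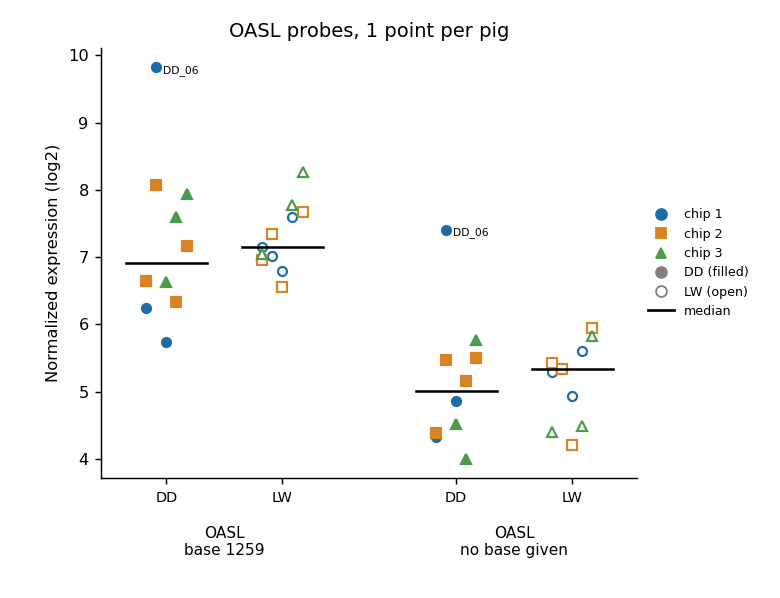
Normalized log2 expression (y axis) of the 2 OASL probes in each of 10 DD pigs (filled) and 11 LW pigs (open), with chips by colour and shape and the median as a line. DD_06 reaches 9.82 on the OASL probe at base 1259, where the next DD pig is at 8.07.

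DD_06, on chip 1, was the highest DD pig on 10 of the 11 member probes. At base 1259 of OASL it lay 1.75 above the next DD pig. Without it the OASL difference at base 1259 was -0.45 (SE 0.23, limma adjusted p = 0.153). The OAS1 difference without it was 1.65 at base 2396 (limma adjusted p = 0.00774) and 1.45 at base 871 (limma adjusted p = 0.0707). The OAS2 difference without it was 0.82 at base 340 (limma adjusted p = 0.00385) and 0.54 at base 3327 (limma adjusted p = 0.122). The same pig was the highest DD pig on 21 of 24 interferon-stimulated effector genes, with a median of 1.62 above the DD median. Its sibling DD_11 was at 7.16 on OASL at base 1259, close to the DD median. At base 340 of OAS2 this sibling was at 7.19, also near the DD median of 7.28. On OAS1, however, DD_11 was the next highest DD pig after DD_06, with 12.88 at base 871 and 11.38 at base 676.

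Of 4 other genes listed for the turnover of 2-5A and its pathway, 3 had a tested probe. Read by its brightest probe, 1 gene was called higher and none lower. These genes had 6 tested probes together, of which 1 was called higher and none lower. Over all probes tested 11.0% were called higher in DD pigs and 10.7% lower. ENPP1, an ectonucleotidase that breaks down nucleotides and related messengers, was the called gene, at 0.58 (SE 0.20, limma adjusted p = 0.0454), and its DD_06 value of 4.94 was the lowest of the DD pigs. Its probe was well above background in 9 of 11 LW pigs. ABCE1, an ATPase of ribosome recycling, gave -0.26 (SE 0.14, limma adjusted p = 0.174). PDE12, a phosphodiesterase that degrades 2-5A, was not called either (SE 0.13, limma adjusted p = 0.982). AKAP7, whose product can also degrade 2-5A, had no named probe.

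**Figure D4:**
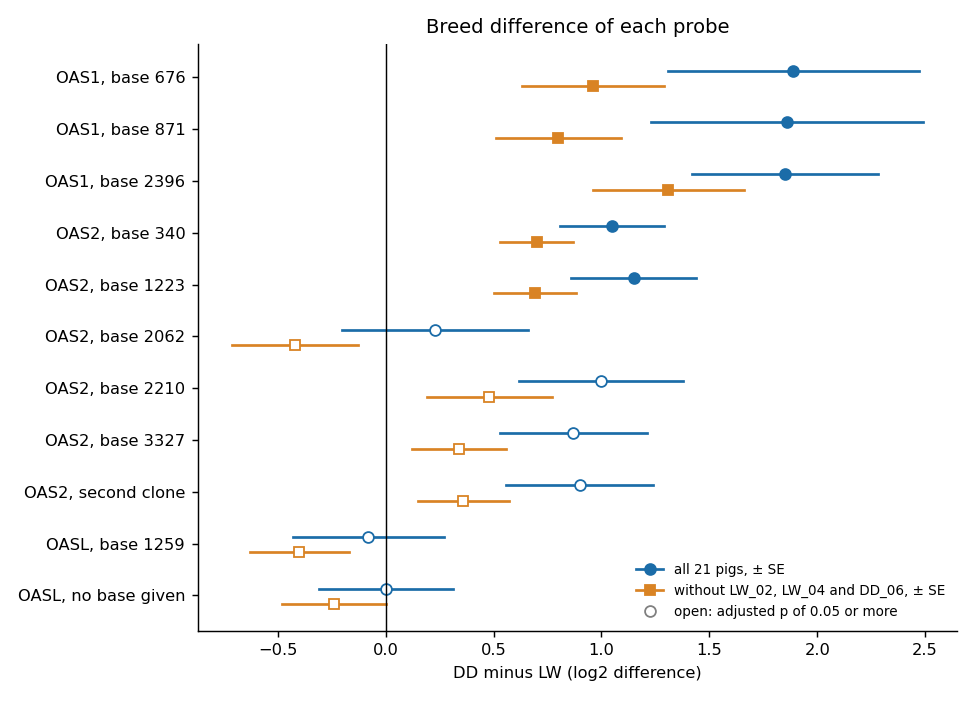
Log2 difference DD minus LW (x axis) of each probe with its standard error, for all 21 pigs (blue circles) and without LW_02, LW_04 and DD_06 (orange squares), where filled symbols have an adjusted p under 0.05. The OAS1 differences fall from between 1.85 and 1.89 to between 0.80 and 1.31 without these pigs, while OASL at base 1259 moves from -0.08 to -0.40.

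The chips differed in the size of the breed difference, and the pigs LW_02, LW_04 and DD_06 were all on chip 1. OAS1 at base 2396 was higher in DD pigs by 2.57 on chip 1, 1.46 on chip 2 and 1.60 on chip 3, and every DD pig lay above every LW pig of its chip. OAS1 at base 871 gave 4.01, 0.57 and 1.27. OAS2 at base 340 gave 1.89, 0.59 and 0.73. OAS2 at base 3327 gave 2.32, 0.28 and 0.06, so its difference lay almost wholly on chip 1. There LW_05 at 12.77 and LW_07 at 12.55, the other LW pigs of chip 1, were low as well. Both lay below every LW pig of chips 2 and 3 (13.35 to 14.87). At base 1223 this was not so, with LW_07 at 8.75 and LW_24 of chip 3 at 8.27. OAS2 at base 2062 turned with the chip, at 1.75, -1.01 and 0.20. OASL at base 1259 gave 0.13, -0.08 and -0.30. Each chip held 3 or 4 pigs of a breed, and no separate breed test was run within a chip. The interaction of breed and chip was called for 0.0% of 45228 probes by limma (6786 at an unadjusted p under 0.05), and 3 of the 11 member probes, all OAS2, had an unadjusted p under 0.05. Their adjusted p was 0.325 or 0.326, where the smallest over the array was 0.325. Without chip 1 the fit called 2 of the 11 member probes, OAS1 at base 2396 (1.54) and OAS2 at base 340 (0.61). Without chip 3 it called none of them, though OAS1 at base 2396 stood at 1.94, and the calls over all probes fell from 9809 to 649. With array brightness as a covariate OAS1 was called at base 2396 alone (2.22, limma adjusted p = 0.0403), with limma adjusted p = 0.101 at base 871 and 0.0859 at base 676, and the OAS2 difference at base 3327 rose from 0.87 to 1.56 (limma adjusted p = 0.0427).

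**Figure D5:**
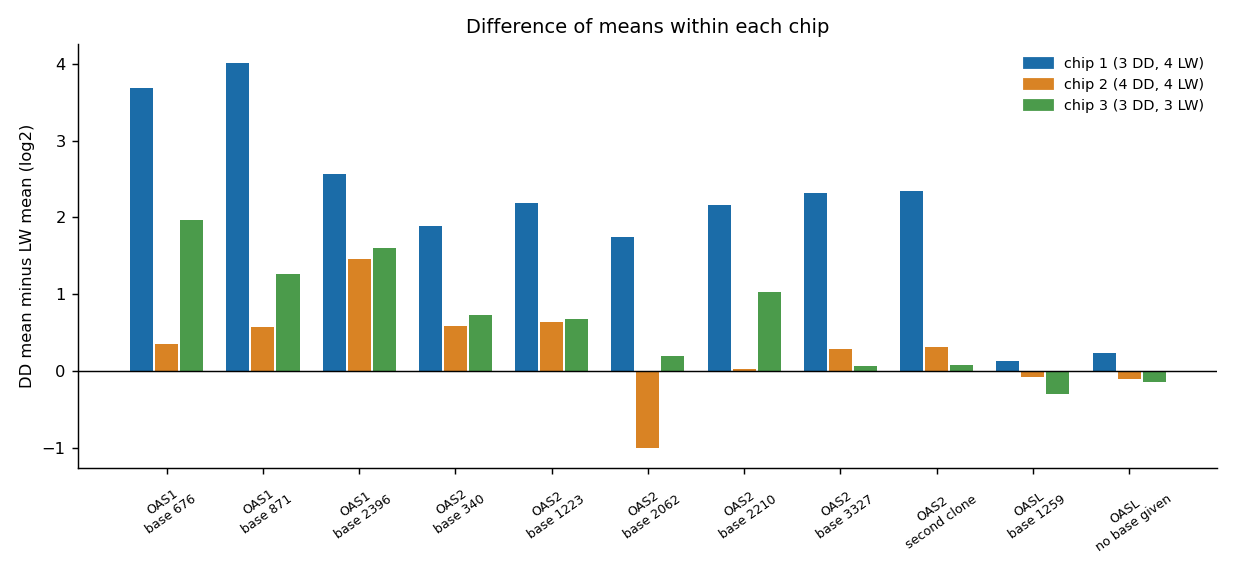
Difference of the DD and LW means on the log2 scale (y axis) for each probe, with 1 bar per chip (chip 1 with 3 DD and 4 LW pigs, chip 2 with 4 and 4, chip 3 with 3 and 3) and no error bars. Chip 1 gives the largest bar for every OAS1 and OAS2 probe, and OAS1 at base 2396 stays at 1.46 or above on all chips.

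Among the members, the spread between LW pigs was widest for OAS1. Around the breed mean of each chip, the SD of OAS1 in LW pigs was 1.44 at base 2396, 1.97 at base 871 and 1.70 at base 676. The median over all probes tested was 0.31, and the 3 OAS1 probes stood at the 99.8th to 99.9th percentile. Without LW_02 and LW_04 the OAS1 SDs were 1.13, 0.91 and 0.83, at the 99.1st, 97.6th and 96.3rd percentile. The OAS2 SDs ran from 0.46 at base 340 (79.5th percentile) to 0.89 at base 2062 (98.1st percentile). The OASL SDs were 0.47 and 0.62, at the 80.7th and 91.8th percentile. In DD pigs OASL at base 1259 had the highest SD of the 11 member probes, 1.34, at the 99.6th percentile. The OAS1 SDs in DD pigs were 0.68 at base 2396, 0.95 at base 871 and 1.1 at base 676. Without DD_06 the SD of OASL at base 1259 was 0.68, at the 89.4th percentile, and those of OAS1 were 0.51, 0.55 and 0.88.

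Probes of the same gene moved together between pigs once breed and chip were removed. Pearson r over the 21 arrays was 0.96 between OAS1 at base 676 and base 871 and 0.93 between OAS2 at base 340 and base 1223. Between the genes, OAS1 at base 871 and OAS2 at base 1223 had an r of 0.91, while OAS1 at base 871 and OASL at base 1259 had 0.41. These arrays share litters, and LW_02, LW_04 and DD_06 carry weight in each r. Among 8631 named genes with a tested probe, those most like OASL at base 1259 were TDRD7 (r = 0.90), LOC100151816 (0.88), XAF1 (0.88), MX2 (0.87) and RSAD2 (0.87). TDRD7, XAF1, MX2 and RSAD2 are interferon-induced genes. Those most like OAS2 at base 3327 included TKT (0.83), TCF7L2 (0.80), ATP2A2 (0.79) and OAS1 at base 871 (0.78), where OAS1 at base 2396 had an r of 0.63. Those most like OAS1 at base 2396 were ADAP2 (0.77), C2 (0.73), LYZ (0.70), TLR8 (0.69) and RRBP1 (0.68), of which LYZ encodes lysozyme and TLR8 an endosomal RNA sensor. ISG15, an interferon-induced ubiquitin-like modifier, had an r of 0.86 with OASL, 0.62 with OAS2 and 0.49 with OAS1.

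Other interferon genes were read beside these values, each gene by its brightest probe. Over all probes tested 11.0% were called higher in DD pigs and 10.7% lower, and no list was tested against these shares. Of 24 tested interferon-stimulated effectors 10 were called higher in DD pigs and none lower, with a median log2 difference of 0.54. The 3 with the smallest adjusted p were IFI44 at 0.62 (SE 0.11, limma adjusted p = 0.00126), BST2, which tethers budding virus, at 1.38 (SE 0.28, limma adjusted p = 0.00299) and MX2, a dynamin-like antiviral GTPase, at 1.52 (SE 0.32, limma adjusted p = 0.00366). LW_02 was among the lowest 2 LW pigs for 2 of the 24 effectors and LW_04 for 7, with medians of 0.02 and -0.14 from the LW median. LW_02 was nowhere further below that median than -0.40, while LW_04 stood at -2.17 for MX1, -1.67 for CXCL10 and -1.41 for GBP1, within or past the -0.91 to -2.09 it had on the OAS2 probes. Of 8 tested sensors of nucleic acid 2 were called higher, with a median of 0.42. These were DDX58, which encodes RIG-I, at 1.00 (SE 0.30, limma adjusted p = 0.0258) and ZBP1 at 0.77 (SE 0.24, limma adjusted p = 0.0292). MAVS, the adaptor of RIG-I, gave -0.34 (SE 0.13, limma adjusted p = 0.0539). Of 10 tested interferon receptor and signalling genes 2 were called higher and 1 lower, with a median of 0.07. The transcription factors STAT2 at 0.49 (SE 0.10, limma adjusted p = 0.00355) and IRF7 at 0.57 (SE 0.15, limma adjusted p = 0.0136) were the higher genes, and the kinase JAK1 at -0.42 (SE 0.13, limma adjusted p = 0.0259) the lower one.

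Markers of blood cells were read beside the family. The mean over 5 erythroid markers was 13.23 to 14.37 in DD and 12.96 to 14.07 in LW pigs, and all 5 were well above background on every array. Of 6 tested monocyte markers 1 was called lower in DD pigs (range of the mean 8.30 to 9.96 in DD, 8.51 to 10.00 in LW), and of 6 T cell markers 2 were called lower (9.90 to 11.24 against 10.65 to 11.40). Of 5 erythroid markers 2 and of 4 B cell markers 1 were called higher, and none of 5 granulocyte, 5 NK cell and 4 platelet markers was called. The list for plasmacytoid dendritic cells had 2 tested genes, TCF4 and SIGLEC1, neither of them called. SIGLEC1 was well above background in 5 of 10 DD and 3 of 11 LW pigs, so this list does not describe that cell type. Over all probes tested 21.7% were called in either direction. The marker counts were not tested against that share and were not read as shifts of cell types. The part of blood cell composition in the OAS values was not tested.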

How the data were processed

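Scanner files and a log2 matrix of 21 arrays were used, out of 24 that the authors processed before they removed 3 as outliers. The scanner intensity values were deposited as Agilent Feature Extraction 10.7.3.1 wrote them, per the submitters' processing notes, and no probe was saturated. The deposited log2 values were made by the authors through normexp background correction, log2 scaling and quantile normalization in limma. Their update of the array annotation was not used here, and probes kept the names of the scanner files.

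Breed came from the sample titles, and sow and chip from the study's sample list. Controls and the 25% of probes with the lowest mean were removed. Differences were fitted with limma 3.58.1 in R 4.3.3 (lmFit, duplicateCorrelation with a consensus of -0.11 between siblings, eBayes), with Benjamini-Hochberg adjustment over 45228 probes. That consensus was kept when single pigs were left out and was estimated again elsewhere. Litter means of chip-centred values were compared by exact permutation (scipy 1.17.1). The fit was tested on simulated data, where 11 of 68 changes of 0.5, 50 of 66 of 1 and 66 of 66 of 2 on the log2 scale were recovered. A further 8 probes were called without a change. The simulated residuals were normal and independent between pigs, without litters or pigs that stood apart. These rates therefore need not hold for the member probes. The number of arrays limits the precision.

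The members and lists were chosen with earlier results of these data known. Named genes were all member probes, every 2-5A pathway gene, the 3 genes of smallest adjusted p in each other interferon list (brightest probe of a gene) and the 5 genes most like the brightest probe of each member. The gene lists hold 38 interferon-stimulated effectors, 11 sensors, 10 receptor and signalling genes and 4 pathway genes, of which 24, 8, 10 and 3 had a tested probe. Some results of these rules are not reported here. Alternatives were other scalings, filters, probe summaries, models and samples. Those without LW_02, LW_04 and DD_06 and the comparison of probes of one gene were added after seeing the data.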

Additional observations from a re-analysis of the deposited data

Results flagged for a closer look

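DD_06 was flagged as far from the other DD pigs on 7 of 11 probes. The gap to the next DD pig, divided by the range of the 10 DD pigs, exceeded the critical 0.466 at base 871 of OAS1 (0.508). It did so for OAS2 at base 340 (0.522), base 1223 (0.585), base 2062 (0.469) and base 3327 (0.472) and on the near-identical OAS2 probe (0.490). It also did so on the dim OASL probe (0.483). Chance alone flags about 1 in 20 groups, and these probes share the same pigs. The 11 LW pigs were too many for this rule, so LW_02 and LW_04 were not put to it.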

How the results depend on the processing

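No paired analysis was possible because the animal numbers of DD and LW pigs are not shared, so no replicate block could be fitted. OAS1 at base 2396 stayed higher in DD pigs in all 35 alternatives besides those without LW_02 and LW_04 and past the threshold in 33, with adjusted p = 0.0587 at 1.61 without chip 2 and 0.116 at 1.94 without chip 3. Leaving out each pig moved it between 1.64 and 2.02. The counts of 35 and 33 include the mean over the probes of a gene, which held only the other OAS1 probes (1.88, limma adjusted p = 0.0333). At base 871 the direction held in 34 of 34 and the call in 15, and at base 676 the call held in 26 of 34. Without the block by sow the difference at base 871 was 1.9 (SE 0.66, limma adjusted p = 0.0545) and was not called. OAS2 at base 340 kept its call in 33 of 34 and at base 1223 in 32 of 34. OAS2 at base 3327 stayed positive but passed the threshold with 75th percentile scaling (1.16), with brightness as a covariate (1.56) and without LW_22, within a range of 0.54 to 1.04 over the pigs left out. OAS2 at base 2062 turned to -0.54 without chip 1, to -0.16 without LW_02 and LW_04, and to -0.42 without these and DD_06 (litter means -0.24 and -0.49), with -0.16 to 0.40 over the pigs left out.

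OASL at base 1259 turned to 0.01 with a normexp offset of 50 and to 0.24 with brightness as a covariate, with -0.45 to 0.12 over the pigs left out, and the dim OASL probe turned to 0.03 and 0.42 under the same settings, to 0.01 with litter means and to 0.00 without chip 3, with -0.29 to 0.14. Its litter difference was -0.10 without LW_02 and LW_04 and -0.26 without these and DD_06. No OASL value was called. The count of all probes called went from 9809 to 2719 with no chip term, 649 without chip 3, 1045 with brightness as a covariate and 5109 to 13139 over the pigs left out. The count of member probes called went from 5 to 3 with no chip term, 2 without chip 1, 0 without chip 3 and 3 to 7 over the pigs left out. The causes were not tested.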

Other observations

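The array carries 3 further probes whose identifiers hold an mRNA that the files pair with a member, and they were found after the values were seen. The one for OAS1 gave a log2 difference of 2.30 (SE 0.96, limma adjusted p = 0.0864) and, without LW_02 and LW_04, of 0.90 (SE 0.38, limma adjusted p = 0.0940). The one for OAS2 has the same bases as the probe at base 3327 and gave 0.89 (SE 0.34, limma adjusted p = 0.0641). The one for OASL has the same bases as the probe at base 1259 and gave -0.12 (SE 0.36, limma adjusted p = 0.828), with spots that differed by at most 0.62 on any array.

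Siblings bore on the OAS1 values unevenly. LW_12 and LW_24, of one sow, were at 9.61 and 9.36 at base 2396, the lowest LW pigs there after LW_02 and LW_04. LW_14 and LW_22, of another sow, were at 11.89 and 12.20, the highest LW pigs there. LW_04 and LW_09 differed by -2.98, the widest gap of any sibling pair on this probe.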
